A study of Mus musculus with 8 samples.

Results

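Promoter cytosines that lay far from any listed CpG island and yet had a low mean methylation level in germline stem (GS) cell lines are described here. The members were the cytosines annotated as lying outside islands and their flanks (interCGI) whose methylation level, averaged over the 8 lines with equal weight, was under 10%. They numbered 16966 of the 23986 promoter sites outside islands (70.7%), which is 8.33% of the 203645 promoter sites measured. They fell in 10841 CpGs and were assigned to 1615 of the 2536 genes that had any site outside islands. The low level was the criterion of choice, so it is given as a description and was not tested.

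GS cells are spermatogonia grown in culture that keep the activity of stem cells. The lines here were labelled as B6 F1, wild-type in genotype and untreated, where F1 names the first generation of offspring in the study. The control-F1 lines (29, 37, 44 and 45) came from mice born after natural mating. The ICSI-F1 lines (11, 17, 20 and 21) came from mice born after intracytoplasmic sperm injection (label M1). The study took the injected sperm, which it calls wild-type, from mice that carry an *Egfp* transgene. By the study's methods, the cultures were started from CD9-expressing spermatogonia of mature testes. The labels give the same medium, with FGF2 and GDNF, for all lines. Each line gave 1 library for reduced representation bisulfite sequencing, in which the enzyme MspI cuts DNA at CCGG and bisulfite converts unmethylated cytosines. The methylation level of a site is the percentage of its reads left unconverted, and an SD or p-value covers the spread between lines only. Gene expression was not analysed here, so the labelled cell type was not checked against its markers.

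CpG dinucleotides are depleted from most of the mammalian genome because methylated cytosine readily mutates to thymine. CpG islands are stretches that kept their CpGs, usually at the starts of genes, and they are normally unmethylated in the germline as well as in the body. Whether a promoter counts as an island depends on cutoffs for length, G+C content and CpG density, so short CpG-rich starts can be left out of an island list. In male germ cells most CpGs between genes are highly methylated, and an unmethylated stretch outside an island stands against that background.

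The sequences of a few promoters show what such sites look like. They were read from mm10 in the direction of each gene, and capitals mark the CpGs that held an unmethylated cytosine, except in the second *Col6a5* stretch, where they mark CpGs with a cytosine at 80% or more. *Nr4a1*, the gene of an immediate-early nuclear receptor, is shown because it held the most members (chr15:101253976-101254275, plus strand, 48 of 51 CpGs marked).
Nr4a1: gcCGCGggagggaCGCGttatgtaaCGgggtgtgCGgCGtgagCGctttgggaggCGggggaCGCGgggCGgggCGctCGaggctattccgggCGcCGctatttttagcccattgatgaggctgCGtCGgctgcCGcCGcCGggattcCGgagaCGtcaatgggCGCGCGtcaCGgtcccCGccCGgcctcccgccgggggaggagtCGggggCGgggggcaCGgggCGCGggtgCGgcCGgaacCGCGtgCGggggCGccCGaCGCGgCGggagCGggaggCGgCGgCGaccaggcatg

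*Clgn* (calmegin, a chaperone needed for sperm to bind the egg; chr8:83389725-83389824, plus strand, 11 of 12 CpGs marked) and *Asz1* (a germ cell protein of the piRNA pathway; chr6:18109044-18109197, minus strand, 11 of 12 marked) are shown as germline genes whose sites outside islands were all members.
Clgn: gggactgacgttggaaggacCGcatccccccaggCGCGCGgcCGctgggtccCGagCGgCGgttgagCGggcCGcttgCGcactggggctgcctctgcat
Asz1: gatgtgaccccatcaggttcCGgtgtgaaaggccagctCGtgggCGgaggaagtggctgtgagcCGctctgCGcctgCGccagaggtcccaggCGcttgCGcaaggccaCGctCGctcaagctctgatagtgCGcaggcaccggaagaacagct

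*Col6a5*, which encodes a chain of collagen VI, is shown because unmethylated and highly methylated CpGs sat in the same promoter. The first stretch lay near its start (chr9:105960666-105960783, minus strand, 4 of 5 CpGs marked) and the second farther upstream (chr9:105961414-105961629, minus strand, all 5 CpGs marked).
Col6a5 near the start: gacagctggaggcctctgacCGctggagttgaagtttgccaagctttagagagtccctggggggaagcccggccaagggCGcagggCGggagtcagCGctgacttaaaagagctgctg
Col6a5 far from the start: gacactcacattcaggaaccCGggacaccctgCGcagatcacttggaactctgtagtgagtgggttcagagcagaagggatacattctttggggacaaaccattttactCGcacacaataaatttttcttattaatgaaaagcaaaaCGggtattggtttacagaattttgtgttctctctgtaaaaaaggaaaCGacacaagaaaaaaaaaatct

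The members were spread over many promoters. A promoter held a median of 7 members, 192 genes had a single one and 230 had at least 20. All sites outside islands were members in 656 genes, some were in 959, and none were in 921. Of the protein-coding genes with such sites, 1382 of 1912 (72.3%) had members, against 200 of 527 lincRNA genes (38.0%). All of the members lay at least 4002 bp from a listed island, as did all promoter sites outside islands. The median for members was 90259.5 bp, counted to islands that held a measured promoter site, so other islands may lie nearer. The islands listed in the table were at least 500 bp long, and 93.2% of members lay outside annotated transcripts.

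The mean level of a member had a median of 2.41% (quartiles 1.43 and 3.79%). It was under 5% at 86.4% of members and under 1% at 2466 of them (14.5%). No methylated read was seen in any line at 414 members (2.44%), and 10424 (61.4%) were above 10% in no line. Levels of promoter sites outside islands were split between extremes, with 70.7% under 10%, 11.9% (2843 sites) at 90% or more, and between 278 and 1006 sites in each step of 10 points between. Just under the threshold was a site of the lincRNA gene *Gm44761* at 10.0% when rounded, where control-F1 lines had 14.3% ± 7.48 and ICSI-F1 lines 5.68% ± 6.92 (SD, n = 4). Just over it was a site of *Pml*, a gene for the organizer of nuclear bodies, where the mean was 0.888% ± 1.04 in control-F1 lines and higher by 18.2 points, with an SD of 20.8, in ICSI-F1 lines (n = 4). The next sites on either side were in the lincRNA gene *Gm26519* (9.99%) and in *Crhbp*, which encodes a binding protein of corticotropin-releasing hormone (3.84% and 16.2% in the groups). On the X chromosome 473 of 549 sites outside islands were members (86.2%), and on the Y chromosome 19 of 79 were.

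The best covered of the members with no methylated read were 3 sites upstream of *Gm26692*, *Ptp4a2* and *Rfc4*, the last 2 encoding a protein phosphatase and a subunit of the DNA replication clamp loader. Over the 8 lines they had 852, 803 and 798 reads before scaling, and these counts of 0 allow levels up to 0.352%, 0.374% and 0.376%. These limits cover counting error only, at sites chosen for their counts of 0. The cytosine on the other strand of the same CpGs averaged 2.17%, 2.18% and 1.65%, with up to 9.09%, 7.95% and 6.98% in single lines. For a single member in a single line, the median coverage of 42 to 79 reads before scaling allows 3.8% to 7.14%, so levels under a few percent rest on averages over lines or sites.

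Unmethylated sites outside islands lay close to gene starts. Their median distance from the listed start was 78 bp (quartiles 32 and 183), against 187 bp for the 3675 sites outside islands at 10 to 80% and 395 bp for the 3345 sites at 80% or more. Within 100 bp lay 57.3%, 34.4% and 19.0% of the respective groups, and beyond 500 bp 6.26%, 23.8% and 42.9%. For unmethylated island sites the median distance was 126 bp. Sites of one promoter share their sequence and start, so these distances are descriptions and were not tested. With each gene counted once, by its median, the distance was 61 bp.

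The surroundings of the members were rich in CpG. In a window of 100 bases on either side of a member the G+C content had a median of 62.2%, against 55.7% and 51.7% around sites at 10 to 80% and at 80% or more. The ratio of observed to expected CpG was 0.713, 0.493 and 0.360, and the number of CpGs in the window 13, 7 and 5. Around unmethylated sites in islands the medians were 69.7%, 0.912 and 22 CpGs, so the members lay between islands and the rest of the promoter sites. A window was called island-like where its G+C content was at least 50% and the ratio over 0.6, and 10710 members (63.1%) were in such sequence, against 28.8% and 6.73% of the other classes and 94.6% of unmethylated island sites. Repeat-masked sequence held 3.5% of members, 8.63% of sites at 10 to 80% and 17% of sites at 80% or more. The start of another gene in the opposite orientation lay within 1000 bp of 10.6%, 7.24% and 3.59%.

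Distance and sequence each went with the share of unmethylated sites. The share under 10% was 84.2% within 50 bp of the start and 31.5% between 500 and 1000 bp. In island-like sequence it went from 90.8% to 68.5% over the same steps, and in other sequence from 63.9% to 26.5%. Next to the start, other sequence thus had a lower share than island-like sequence at 500 to 1000 bp, and island-like sequence up to 300 bp away stayed at 88.7% to 90.9%.

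**Figure D1:**
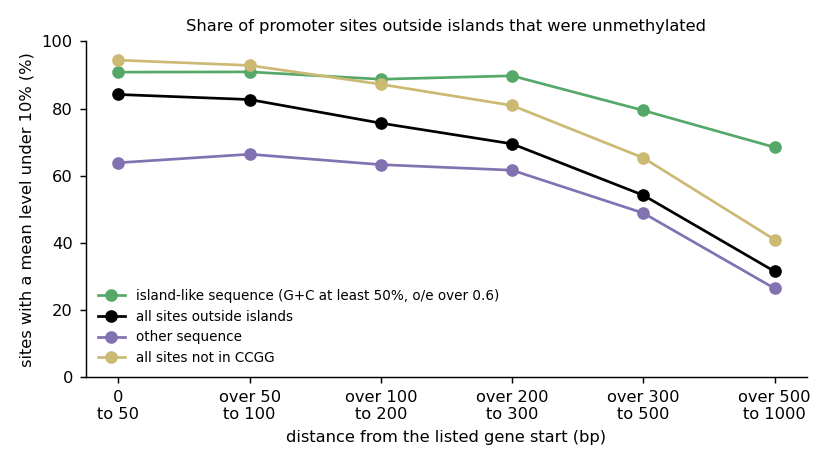
Share of promoter sites outside islands with a mean level under 10% (vertical axis, percent of sites) in steps of distance from the listed gene start (horizontal axis, bp), for all sites, island-like sequence and other sequence. The share of all sites falls from 84.2% in the nearest step to 31.5% in the farthest, and island-like sequence lies above other sequence in every step.

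Some promoters held both unmethylated and methylated sites. With the cytosines in CCGG left out for a reason given further on, 154 genes had members beside sites at 10% or more, against 1299 genes with members alone and 646 with none. The members were on average nearer to the start in 108 of the 154 (70.1%), at a median distance of 160.5 bp against 405.5 bp for the other sites. In the 10 of these genes that had sites at 80% or more, all such sites were farther from the start than every member in 9 and nearer in 1.

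*Col6a5* had members near its start and highly methylated sites far from it. Its 8 members, on 4 CpGs 43 to 120 bp from the start, had mean levels of 0.469%, 3.36%, 4.24% and 4.39% in control-F1 lines 29, 37, 44 and 45 and of 13.2%, 2.28%, 4.36% and 15.0% in ICSI-F1 lines 11, 17, 20 and 21. ICSI-F1 lines 11 and 21 were above all control-F1 lines, whereas lines 17 and 20 were within their range. The group means were 3.11% ± 1.82 and 8.71% ± 6.32 (SD, n = 4). Its 5 sites at 80% or more lay 792 to 966 bp from the start with 94.4% ± 4.29 in the control-F1 group and 95.5% ± 3.56 in the ICSI-F1 group (SD, n = 4), and 1 of them was in CCGG. The promoter also held 4 sites between these levels, at 13.6 to 67.2%, all of them in CCGG and 1 to 163 bp from the start, so some lay nearer to it than members did. In the printed sequences, 4 marked CpGs lie near the start and the others are scattered in A+T-rich sequence upstream. Around the *Col6a5* members the median G+C content was 62.4%, near that of all members. The observed to expected ratio was 0.366, near the 0.360 of sites at 80% or more and below the 0.713 of all members. Of these 8 members 0 were in island-like sequence.

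By the number of sites, the other promoters of this kind were those of *Kat8*, a histone acetyltransferase gene, *Mydgf*, which encodes a secreted growth factor, *Gm47667*, a gene without a descriptive name, and *Paxx*, which encodes a DNA end-joining factor. In control-F1 and then ICSI-F1 lines, the 11 members of *Kat8* had 4.95% ± 4.22 and 1.82% ± 1.28, the 5 members of *Mydgf* 2.60% ± 1.19 and 3.92% ± 2.52, and the 6 members of *Paxx* had 6.38% ± 2.44 and 4.68% ± 2.54 (SD, n = 4). The 4 members of *Gm47667* had 3.56%, 4.78%, 9.20% and 4.13% in control-F1 and 13.2%, 4.01%, 9.04% and 16.9% in ICSI-F1 lines. As in *Col6a5*, ICSI-F1 lines 11 and 21 were highest and the groups overlapped. The sites at 80% or more of *Kat8* and *Mydgf*, 3 in each, were all cytosines in CCGG, whereas in *Paxx* 2 of 4 were.

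**Figure D2:**
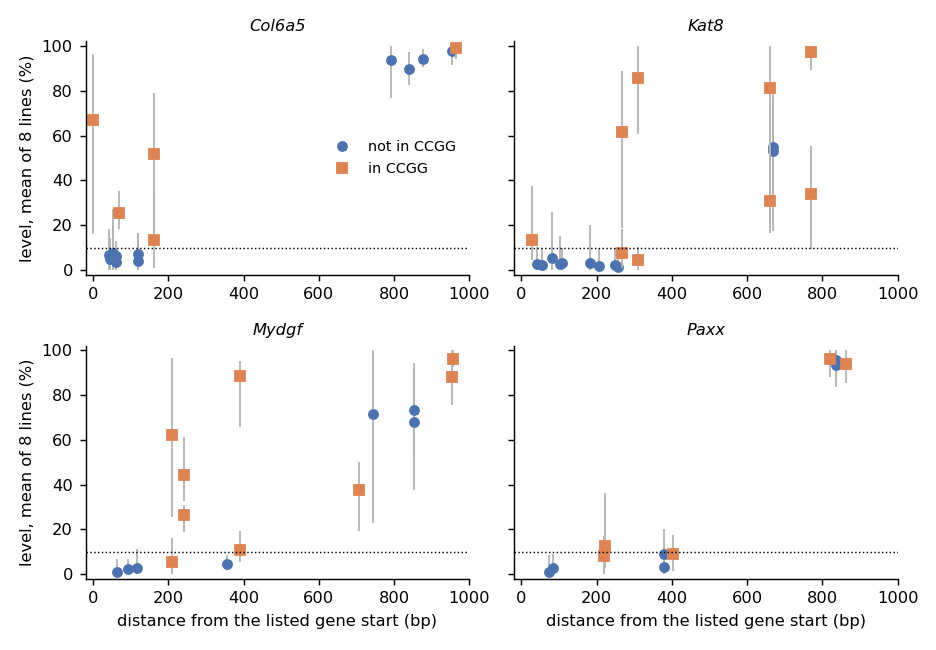
Mean level over the 8 lines of each site outside islands (vertical axis, percent) against its distance from the listed gene start (horizontal axis, bp) in promoters with both members and highly methylated sites. Grey bars run from the lowest to the highest line, orange marks cytosines in CCGG, and the dotted line is the threshold of 10%; in *Col6a5* the members lie 43 to 120 bp and the sites over 80% at least 792 bp from the start, with 4 cytosines in CCGG at 13.6 to 67.2% near the members.

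Whether a cytosine was a member went with the MspI site itself. Of the 6124 promoter sites outside islands that were the CpG cytosine of a CCGG, 2154 (35.2%) were members and their median level was 25.2%. Of the 17862 other sites, 14812 (82.9%) were members and the median was 2.58%. Island promoters showed the same split, with 42.4% of 21899 sites in CCGG and 99.8% of 134243 other sites under 10%. The members in CCGG were also higher than the other members in each line, at 3.19 to 6.27% against 1.02 to 4.12%.

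The split was seen inside promoters that were otherwise unmethylated. In 863 genes, the sites outside CCGG numbered at least 5 and averaged under 5%, and together these 12811 sites had a mean of 2.35%. Their 2854 cytosines in CCGG had a mean of 22.2% and a median of 11.7%, and 151 were at 80% or more. The mean over these cytosines was 20.5%, 18.6%, 24.6% and 24.1% in control-F1 lines 29, 37, 44 and 45 and 19.8%, 21.5%, 23.9% and 24.2% in ICSI-F1 lines 11, 17, 20 and 21. All lines had a raised level there, and the groups overlapped.

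The level of a cytosine in CCGG went with the distances to the next CCGG ahead of it and behind it, in the direction of its own strand. Where the next CCGG lay over 20 and up to 150 bp away on both sides, the median level was 24.5% at 1001 sites. Where the one behind was at that distance and the one ahead was over 150 and up to 400 bp away, it was 52.8% at 369 sites. With the one ahead farther than 400 bp or within 20 bp, it reached 96.7% at 114 sites, of which 1 was a member. Where instead the one behind was over 150 bp or up to 20 bp away, the median was 4.69% and 1296 of 1370 sites (94.6%) were members.

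The lines followed the same order of spacings, with medians of 21.4 to 25.4%, 23.5 to 70.5%, 96.4 to 100% and 2.48 to 5.26%. Control-F1 line 37 had the 23.5%, and the other lines had 44% or more in that spacing. Island cytosines gave medians of 24.2%, 52.8%, 97.0% and 4.17% in the same order. The distance limits were chosen after the data were seen. The part of fragment length and library construction in these levels was not tested.

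**Figure D3:**
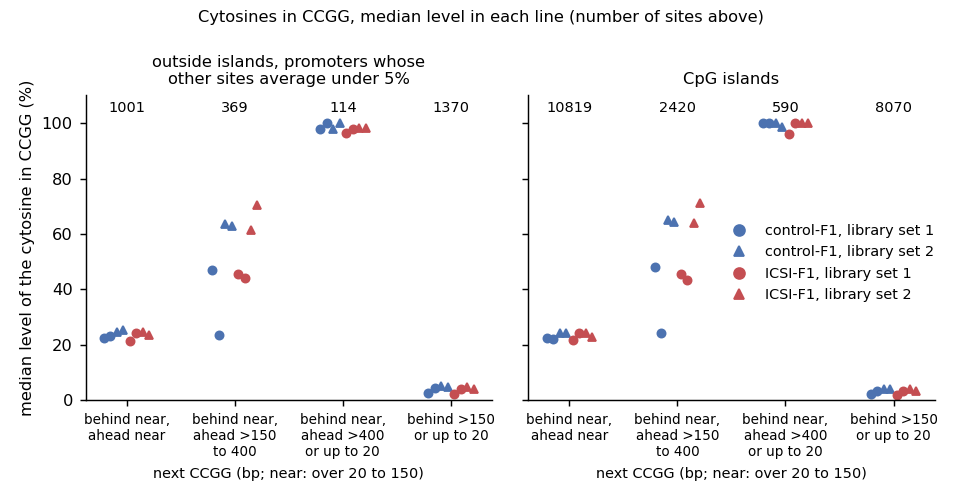
Median methylation level of the cytosine in CCGG (vertical axis, percent) in each line, by the distance to the next CCGG behind and ahead, in promoters outside islands whose other sites averaged under 5% (left) and in islands (right). Points are lines, colours groups and shapes library sets, and the numbers above count sites. The medians run from 2.48% (left) and 2.11% (right) in the last spacing to 100% in the third, with control-F1 line 37 low in the second.

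The 2 strands of a CpG showed where this matters. Outside CCGG, 7342 CpGs had both strands measured, and in 6105 both cytosines were members while in 83 only 1 was. In the 6105 CpGs the strands differed by a median of 1.2 points. In CCGG, both cytosines were members in 20 of 1554 CpGs and only 1 was in 645, and in 204 of these the other cytosine was at 80% or more. No CpG outside CCGG had a member opposite a site at 80% or more.

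The 3 CpGs whose other strand had the highest level beside a member are shown with 20 bases on either side of the CCGG, which is in capitals, and were read along the strand that carried the member. They belong to *Nsg2*, a neuronal vesicle protein gene (chr11:32000370-32000413, plus strand), *Riox2*, which encodes a ribosomal oxygenase (chr16:59471716-59471759, plus strand), and *Zfp59*, a zinc finger gene (chr7:27838576-27838619, minus strand).
Nsg2: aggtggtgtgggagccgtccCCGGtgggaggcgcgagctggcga
Riox2: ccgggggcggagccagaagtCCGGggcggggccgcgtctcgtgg
Zfp59: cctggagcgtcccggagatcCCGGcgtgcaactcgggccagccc

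The *Nsg2* member had 0%, 4.88%, 8.26% and 7.27% in control-F1 lines 29, 37, 44 and 45 and 2.5%, 0%, 4.86% and 10.6% in ICSI-F1 lines 11, 17, 20 and 21. The cytosine on the other strand of the same CpG was at 100% in every line. The members of *Riox2* and *Zfp59* averaged 6.11% and 4.04%, again with 100% on the other strand in all lines.

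With the cytosines in CCGG left out, the sites at 10 to 80% resembled those at 80% or more. The median distance from the start was 74 bp for members against 365 and 385 bp for sites at 10 to 80% and at 80% or more, and the share in island-like sequence was 66.5%, 8.26% and 5.57%. Short motifs that contain a CpG were searched on both strands at the site itself. GGGCGG, bound by SP and KLF factors, covered 8.55% of members, 4.82% and 1.95% of the other classes and 7.28% of all promoter sites outside CCGG. The core of the NRF1 site, TGCGCA, covered 1.15%, 1.07% and 0.516% (all sites, 0.837%). The cyclic AMP response element TGACGT covered 0.938%, 0.536% and 0.861% (0.634%), and the E-box CACGTG 1.22%, 1.99% and 1.32% (0.653%). GGGCGG was more frequent among members than in the other classes, and the E-box was most frequent at 10 to 80%. The ETS motif CCGGAA contains a CCGG and was not compared.

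The 5 genes with the most members were unmethylated at nearly all of their measured sites. *Nr4a1* had 81 members among 83 sites, 4 to 349 bp from the start, with a median G+C content of 77.1% and observed to expected ratio of 1.08 around them. Their mean level was 1.59%, 1.67%, 4.45% and 1.87% in control-F1 lines 29, 37, 44 and 45 and 0.811%, 1.92%, 1.37% and 1.34% in ICSI-F1 lines 11, 17, 20 and 21. Line 44 stood above the other lines, which overlapped.

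*Prr16* had 66 members of 70 sites and group means of 1.74% ± 1.09 (control-F1) and 1.41% ± 0.701 (ICSI-F1) (SD, n = 4). Of the other genes, *Ptprd*, a receptor-type tyrosine phosphatase gene, had 65 of 67, *Chmp7*, a gene of the ESCRT membrane-remodelling machinery, 63 of 68, and *Fat3*, an atypical cadherin gene, 63 of 70. The group means in the same order were 1.74% ± 0.790 and 1.53% ± 0.755 for *Ptprd*, 3.08% ± 2.57 and 2.24% ± 1.28 for *Chmp7*, and 2.75% ± 1.53 and 2.42% ± 2.12 for *Fat3* (SD, n = 4). All sites of these 5 genes that were not members (2 to 7 in each) were cytosines in CCGG, among them a site of *Fat3* with 98.3% at 329 bp. The members of *Fat3* lay 328 to 986 bp from the listed start, whereas those of the other 4 genes began within 5 bp of it. Those of *Chmp7* reached 905 bp. Around the members of *Chmp7* and *Fat3* the median G+C content was 64.7% and 69.7% and the observed to expected ratio 0.893 and 0.858. CpG-rich stretches outside the listed islands were thus not all short.

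Lists of germline genes and of genes of other tissues were read for members, although few genes of any list had sites outside islands. Of the list of genes expressed in spermatogonial stem cells, 2 of 3 genes had members (13 of 16 sites), of germline and meiosis genes 5 of 6 (70 of 93 sites), and of spermatid genes 4 of 6 (33 of 44 sites). Among liver genes 0 of 3 had members (0 of 16 sites), among muscle genes 0 of 5 (0 of 37 sites, 35 of them at 80% or more), and among blood genes 1 of 6 (5 of 22 sites). Over all genes, 70.7% of sites outside islands were members. The lists of Sertoli and Leydig cell genes (6 of 16 sites), fibroblast feeder genes (4 of 6) and housekeeping genes (17 of 19) had 2, 2 and 1 genes with sites outside islands, and the pluripotency list had none.

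*Hormad1*, which encodes a protein of the meiotic chromosome axis, had 38 members of 48 sites, with means of 3.90% ± 1.41 (control-F1) and 4.30% ± 3.32 (ICSI-F1) (SD, n = 4). The 10 members of *Piwil2*, a piRNA-binding Argonaute gene, had 5.85%, 3.92%, 5.34% and 8.22% in control-F1 lines 29, 37, 44 and 45 and 0.851%, 2.48%, 5.97% and 1.92% in ICSI-F1 lines 11, 17, 20 and 21. Line 20 lay within the control-F1 range, so the groups overlapped. The 11 members of *Asz1*, printed above, had 0.533%, 1.25%, 2.95% and 2.80% in control-F1 and 1.34%, 1.42%, 3.72% and 12.4% in ICSI-F1 lines. Line 21 was the highest, line 20 was just above the control-F1 range, and the groups overlapped.

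Among genes of spermatids, *Clgn* was at 0.740% ± 0.881 and 0.934% ± 0.804, and among genes of spermatogonia *Sohlh2*, a transcription factor gene of early differentiation, at 3.49% ± 3.62 and 5.18% ± 3.78 in control-F1 and ICSI-F1 lines (SD, n = 4). The 6 members of *Lin28a*, whose product blocks let-7 processing, lay 614 to 694 bp from the start, with 3.11% ± 2.18 and 1.68% ± 1.15. The other 2 of its 8 sites lay among them at 615 and 693 bp, averaged 89.3% and were both in CCGG. The 5 members of *Hormad2*, a partner of *Hormad1*, had 0.814%, 2.77%, 2.90% and 0.767% in control-F1 and 1.47%, 6.15%, 6.77% and 5.70% in ICSI-F1 lines. ICSI-F1 line 11 was inside the control-F1 range and the other ICSI-F1 lines were above it. The single gene of the blood list with members was *Itgal*, an integrin gene of leukocytes, at 6.22% ± 6.22 and 3.8% ± 3.74 (SD, n = 4). The other listed genes with members were *Psmd2* (17 members), *Adam2* (15), *Ddx25* (6), *Spata6* (6), *Myh11* (5), *Fap* (4), *Insl6* (1) and *Lhcgr* (1), with mean levels between 0% and 15.2% in any line.

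Gene families differed in their share of members. Zinc finger genes named Zfp had 694 members of 775 sites (89.5%) in 71 of 74 genes, and mitochondrial ribosomal protein genes 68 of 83 sites (81.9%). Solute carrier genes were near the share of all genes, with 72.7%, whereas keratin genes had 44.2% and interleukin and chemokine genes 54.4%. Olfactory, vomeronasal and taste receptor genes had 13 members of 111 sites (11.7%) in 3 of 24 genes. Genes named Gm without further description had 36.9%. No member of any list or family had an adjusted p under 0.05 between the groups in the model described next.

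Control-F1 and ICSI-F1 lines were then compared at the members. The mean level over all members was 1.67%, 2.37%, 4.39% and 3.76% in control-F1 lines 29, 37, 44 and 45 and 1.29%, 2.07%, 4.04% and 3.13% in ICSI-F1 lines 11, 17, 20 and 21. The groups overlapped, at 3.05% ± 1.25 and 2.63% ± 1.20 (SD, n = 4), and the difference of −0.417 points was smaller than either SD. Its sign turned without control-F1 line 44 (0.0316 points) and without ICSI-F1 line 11 (0.0299). Each omission left the groups unequal in the library sets described next, and both SDs include the spread between these sets. The lines instead fell into 2 sets, defined by the numbers of sequenced reads given by the study. Lines 29, 37, 11 and 17 (library set 1) were at 1.29 to 2.37% and lines 44, 45, 20 and 21 (library set 2) at 3.13 to 4.39%, and the difference between groups was −0.342 points within the first set and −0.491 within the second. Unmethylated island sites gave the same picture, with −0.402 points between the groups, and the X-linked members had 3.71% ± 1.19 and 3.23% ± 1.66 (SD, n = 4).

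**Figure D4:**
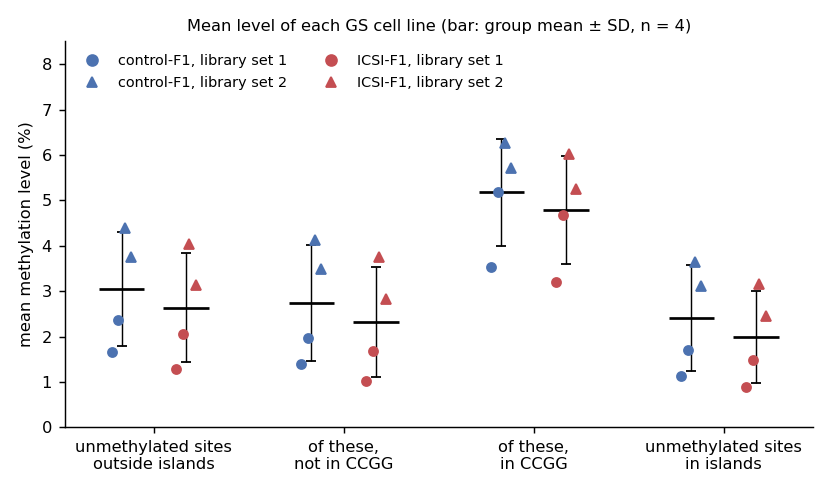
Mean methylation level (vertical axis, percent) of each GS cell line over the members, over members outside and inside CCGG, and over unmethylated island sites. Points are lines, colours groups, shapes library sets, and bars show the group mean ± SD (n = 4); over the members, library set 2 lies at 3.13 to 4.39% and library set 1 at 1.29 to 2.37% in both groups.

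Site by site, the groups were close. Their means differed by no more than 2 points at 59.6% of members and by no more than 5 at 91.8%, and ICSI-F1 was lower at 9390 members (55.3%) and higher at 7150. The threshold on the mean limits any difference to 20 points. In a logistic model of methylated and unmethylated reads with dispersion between lines moderated by limma and Benjamini-Hochberg adjustment over all sites, 0 of the 16552 members with any variation had an adjusted p under 0.05 (all promoter sites, 0%). The lowest adjusted p was 0.471. At an unadjusted p under 0.05 there were 1121 (6.77%, against 7.06% of all promoter sites), 327 higher in ICSI-F1 lines (1.98% against 2.6%) and 794 lower (4.8% against 4.47%). These shares were near those of the whole table.

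A stricter description counted members at which every ICSI-F1 line lay on one side of every control-F1 line and the means differed by over 5 points. Higher in ICSI-F1 were 42 members in 38 genes (0.248%, against 0.281% of all promoter sites), and lower were 91 in 71 genes (0.536% against 0.444%). Leaving out 1 line raised these counts, to 48 to 175 higher (175 without line 11) and 111 to 374 lower (374 without line 29), and to 317 and 808 higher and 541 and 1349 lower within the library sets. With a difference of over 10 points there were 7 and 7 (0.0413% each, against 0.138% and 0.0918%). For comparison, 787 members were higher in every line of library set 2 than in every line of set 1 (4.64% against 5.12% of all sites) and 28 were lower (0.165% against 0.236%), without a limit on the size of the difference. Counted without that limit, the groups did not overlap at 65 and 123 members (0.383% and 0.725%, against 0.427% and 0.679%).

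The member with the largest rise was upstream of the olfactory receptor gene *Olfr658* (chromosome 7, position 104647410), with 0% in all 4 control-F1 lines and 5.00%, 4.41%, 4.76% and 58.3% in ICSI-F1 lines 11, 17, 20 and 21. Line 21 carried most of the difference. At the lincRNA gene *Gm33326* (chromosome 8, position 12467927) the levels were 0%, 2.01%, 5.80% and 6.4% in control-F1 lines 29, 37, 44 and 45 and 19.8%, 20.9%, 14.0% and 10.7% in the ICSI-F1 lines. All ICSI-F1 lines were higher, and the difference of 12.8 points had an adjusted p of 0.541 in the moderated logistic model. The other largest rises among sites where the groups did not overlap were in *Gm26519*, *Gm364* and *Hsd17b10*, a mitochondrial dehydrogenase gene, with 10.3 to 13.1 points, and those of *Gm26519* and *Hsd17b10* were cytosines in CCGG.

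Among members where the groups did not overlap, the largest fall was at *Spr*, which encodes sepiapterin reductase (chromosome 6, position 85137909), with 6.04%, 7.69%, 29.9% and 12.5% in control-F1 lines 29, 37, 44 and 45 and 0%, 0%, 0% and 3.67% in ICSI-F1 lines 11, 17, 20 and 21. The difference was −13.1 points (over all members the largest fall was −19.2 points, where the groups overlapped), and −6.87 and −19.3 within the library sets. At *Ids*, an X-linked lysosomal sulfatase gene (position 70365125), the control-F1 lines had 10.2%, 15.4%, 12.1% and 7.41% and all ICSI-F1 lines 0%. All control-F1 lines were higher, with a mean of 11.3% ± 3.35 (SD, n = 4). The other 3 were in *Gm45572*, *Gcfc2* and *Nsun3*, a mitochondrial tRNA methyltransferase gene, and that of *Gm45572* was a cytosine in CCGG. Apart from *Gm33326*, these 10 sites all had an adjusted p of 0.702 in the moderated logistic model.

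At least 3 such sites lay together in 6 promoters. *Gcfc2* had 7 of its 28 members among them, 7 to 165 bp from the start, and *Mcmdc2*, which encodes an MCM-domain protein of meiotic recombination, had 4 of 11, 11 to 21 bp from the start. In both promoters all of these sites were on 1 strand. They are marked by capitals and printed along that strand (Gcfc2, chr6:81923483-81923682, minus strand, 7 of 15 CpGs marked; Mcmdc2, chr1:9908596-9908647, minus strand, 4 of 9 marked).
Gcfc2: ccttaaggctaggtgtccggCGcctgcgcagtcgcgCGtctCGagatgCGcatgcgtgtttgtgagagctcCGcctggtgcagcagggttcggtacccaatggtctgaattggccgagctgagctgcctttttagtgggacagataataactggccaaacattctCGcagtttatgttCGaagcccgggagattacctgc
Mcmdc2: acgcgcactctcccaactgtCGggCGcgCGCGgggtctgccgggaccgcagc

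The 7 sites of *Gcfc2* averaged 6.22%, 4.02%, 5.52% and 15.7% in control-F1 lines 29, 37, 44 and 45 and 0.186%, 0%, 0.737% and 0.642% in ICSI-F1 lines 11, 17, 20 and 21. On the other strand of these CpGs the lines had 0.612%, 0.855%, 4.83% and 0.983% and then 0%, 3.71%, 10.5% and 1.93%. The difference on 1 strand, 7.87% ± 5.31 against 0.391% ± 0.355 (SD, n = 4), was not seen on the other, where the means were 1.82% and 4.03% and the groups overlapped. The 4 sites of *Mcmdc2* had 0% in all control-F1 lines and 4.51%, 2.93%, 17.6% and 6.25% in the ICSI-F1 lines, against 0.497%, 0%, 3.63% and 0.758% and then 2.04%, 0%, 3.24% and 3.5% on the other strand. Here too the groups overlapped on the other strand.

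In the other 4 promoters, 3 sites each were lower in ICSI-F1 lines, again on 1 strand. *Bet1*, a gene for a vesicle SNARE, had 13 members, *Ccdc9b* 11, *Fcgbp* 18 and *Hoxd10* 52, and the 3 sites were picked for their difference. Averaged over all members, the groups overlapped in *Ccdc9b*, *Fcgbp*, *Hoxd10*, *Gcfc2* and *Mcmdc2*, and in *Bet1* they did not. The 3 sites of *Bet1* had 7.22% ± 4.56 in control-F1 and 0% in all ICSI-F1 lines (SD, n = 4). On the other strand its means were 3.76% and 1.05%, in the same direction but with overlapping lines. *Ccdc9b* also had the same direction on both strands, with 7.31% ± 1.95 and 1.55% ± 1.46 on the chosen strand and 8.17% and 4.98% on the other. On the chosen strand *Fcgbp* had 8.61% ± 2.35 and 1.62% ± 0.553, and *Hoxd10*, a homeobox gene, 10.0% ± 1.51 and 3.20% ± 1.78 (SD, n = 4). On the other strand, measured at 2 of the 3 sites in each, the means were 30.9% and 36.2% for *Fcgbp* and 4.75% and 5.41% for *Hoxd10*. In each of these 2 promoters, 1 of the 3 chosen sites was a cytosine in CCGG.

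Over all sites at which the groups did not overlap, the other strand seldom did the same. Of the 42 higher and 91 lower members, 17 and 22 were cytosines in CCGG, where the strands of a CpG often differed in level. These were not separated in the comparison of strands. Of the 42 higher members 25 had the other strand measured, and 1 of these, in *Gm33326* at 5.41% and 20.8%, was also without overlap in the same direction. At these 25 CpGs the median difference was 7.18 points on the chosen strand and 0.559 points on the other, where 16 had the same sign and 9 the opposite. Of the 91 lower members 65 had the other strand and none was without overlap there, with medians over the 65 CpGs of −6.22 points on the chosen and −0.140 on the other strand, and 34 had the same sign and 31 the opposite. The chosen strand was selected for its difference and the other was not, so the medians are not a like-for-like comparison. The cause of the difference between strands was not tested.

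**Figure D5:**
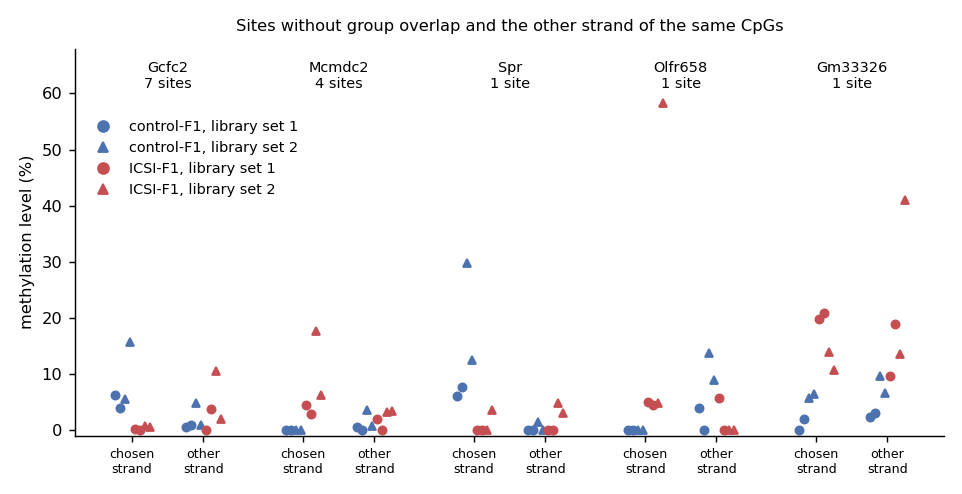
Methylation level (vertical axis, percent) in each line at sites where the groups did not overlap, on the strand that was chosen and on the other strand of the same CpGs, for *Gcfc2* (mean of 7 sites), *Mcmdc2* (4 sites), *Spr*, *Olfr658* and *Gm33326* (1 site each). Colours are groups and shapes library sets; of these 5 promoters, *Gm33326* alone keeps the ICSI-F1 lines above all control-F1 lines on the other strand.

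Averaged over all members of a promoter, a measure added after the data were seen, the groups did not overlap in 15 of 1320 genes with at least 3 members. Of these 2 were higher in ICSI-F1 (0.152%, against 0.563% of genes over all sites of the table) and 13 lower (0.985% against 0.771%), whereas every line of library set 2 was above every line of set 1 in 244 genes (18.5% against 30.8%). The 3 members of *Gm33326* had 4.33%, 3.57%, 3.58% and 4.64% in control-F1 lines 29, 37, 44 and 45 and 7.34%, 15.7%, 5.29% and 32.3% in ICSI-F1 lines 11, 17, 20 and 21. The 10 members of *Ids* had 2.34%, 15.4%, 2.14% and 7.06% in control-F1 and 0.588%, 0%, 0% and 1.70% in ICSI-F1 lines. In both genes the nearest lines of the groups lay within 1 point of each other.

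A few members were unmethylated in all lines but 1. At 15 members in 11 genes (0.0884%, against 0.143% of all promoter sites) a single line was over 30% and the other lines were under 5%, in line 20 at 9, line 44 at 3, line 45 at 2 and line 21 at 1. All belonged to lines of library set 2, and the count was 24 to 26 without line 44, 45, 20 or 21, and 4 with at least 20 scaled reads in every line. Some sites of line 20 shared a promoter and are not independent, with 5 of 14 reads at each site of *Gm30709* and 6 of 18 at each of *Pde11a*. At *Gm33280* (chromosome 1, position 36131186), ICSI-F1 line 20 had 56.8%, from 18 methylated reads of 32 before scaling (exact 95% interval 37.7 to 73.6%), and the highest other line had 1.89%. At *Elf4*, an ETS transcription factor gene on the X chromosome (position 48463245), control-F1 line 45 had 44.4%, from 8 of 18 reads (21.5 to 69.2%), and the other lines 0%. On the other strand of the same CpG, measured at 10 of the 15, the raised line had at most 7.69%, with a median of 0%, so that none of these rises was seen on both strands.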

How the data were processed

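Genomic DNA of 8 GS cell lines (4 control-F1 and 4 ICSI-F1, taken from the sample titles) was sequenced with the Zymo-Seq RRBS kit. Per the labels, reads were trimmed with Trim Galore 0.5.0 and aligned to mm10 with Bismark 0.20.0, and cytosines were counted with methylKit 1.16.0; the study's methods name an earlier version of methylKit. The deposited table holds a score per site and line, namely read numbers that the authors scaled between lines and rounded, so these are not raw counts. Sites with at least 10 reads in all lines and below the top of the coverage range were kept, with strands separate. Dividing by the factor of each line (1 to 1.875) gave whole reads for 100% of values. Summed coverage was 9121937 to 16781748 reads per line, and reads carried no molecular identifiers, so intervals and limits cover counting error only.

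The level was methylated over methylated plus unmethylated scaled reads. Group differences were tested with a quasi-binomial logistic model whose dispersion was moderated with limma 3.58.1 (R 4.3.3), on sites that varied between lines, with Benjamini-Hochberg adjustment over 196818 sites at a threshold of 0.05. Other steps used Python 3.11.15, NumPy 2.4.6, pandas 2.3.3, SciPy 1.17.1, pyfaidx 0.9.0.4 and matplotlib 3.10.9. Sequence was read from GRCm38 (mm10) and transcripts from GENCODE release M21, to which 9216 of 9224 genes were matched. Distances to starts are those of the deposited annotation. Distances to islands were measured to the 5340 annotated islands that held a promoter site. These islands begin and end on a grid of 100 bp. The study's methods name UCSC as the source of its island coordinates, and whether the listed islands follow that source was not checked. Library sets are a reading of the read numbers that the study gives, which also differ within set 2, and no sample title names a batch. The sets cross the groups, so that each set holds 2 control-F1 and 2 ICSI-F1 lines.

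The members, gene lists and tests were chosen with earlier results of these data known. Genes and sites were named by rule: the 5 genes with the most members, the 5 with the most sites among those with at least 3 members and 3 sites at 80% or more, the 3 best covered members without methylated reads, the 5 highest raised in 1 line, the 5 largest rises and falls without overlap, 2 sites on each side of the threshold, the 3 with the highest other strand, and the listed genes with members. Promoters with at least 3 sites without overlap, and the members of single promoters, were named after their values were seen. Alternatives covered coverage minimum, strands, thresholds, windows, averaging, library set, chromosomes, test and single lines, and, chosen after seeing the data, the omission of CCGG and the widest window.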

Additional observations from a re-analysis of the deposited data

Results flagged for a closer look

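Within a group of 4 lines, 1 line stood apart from the other 3 by Dixon's criterion in 15 of the 118 groups examined. Many of the groups came from sites chosen for their values. Groups with the same level in all lines could not be flagged, so the share has no chance rate to be set against. Of these lines 4 were line 44, 2 line 45, 4 line 20 and 4 line 21, all of library set 2, and 1 was line 29. Sites chosen because a single line was raised had to be among them, and no explanation was tested.

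Over the members of a gene, control-F1 line 44 had 4.45% at *Nr4a1* (other control-F1 lines 1.59 to 1.87%) and 3.13% at *Myh11*, a smooth muscle myosin gene (0.877 to 1.07%). Control-F1 line 45 had 6.00% at *Hormad1* (3.05 to 3.41%). ICSI-F1 line 21 had 2.14% at *Clgn* (0.487 to 0.587%) and 10.9% at *Myh11* (0 to 1.82%). Over 3 sites of *Ccdc9b*, control-F1 line 29 was low at 4.41% (8.06 to 8.54%).

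Among the sites raised in 1 line, ICSI-F1 line 20 had 56.8% at *Gm33280* (0 to 1.89%), 46.7% at *Tceal1* and 37.5% at *Gm30709*, the last from 5 of 14 reads. Control-F1 line 45 had 44.4% at *Elf4* and control-F1 line 44 had 41.2% at *Ppfibp2*, from 6 of 15 reads. The other lines of the group were at 0% at these last 4 sites.

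Among the sites without overlap, ICSI-F1 line 21 had 58.3% at *Olfr658* (4.41 to 5.00%) and 3.67% at *Spr*, where the other ICSI-F1 lines had 0%. Control-F1 line 44 had 32.5% at *Gm45572* (8.11 to 11.1%), and ICSI-F1 line 20 had 2.56% at *Gcfc2*, position 81923611, where the others had 0%.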

How the results depend on the processing

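The count of members past the logistic model was 0 in all 17 alternatives, with 478 to 1374 members at an unadjusted p under 0.05 and a lowest adjusted p of 0.184 to 1.00. The mean difference between the groups lay between −0.887 and 0.0316 points with 1 line left out, and its sign turned without control-F1 line 44 (0.0316) and without ICSI-F1 line 11 (0.0299). Leaving out 1 line also leaves the library sets unequal between the groups. Members without overlap higher in ICSI-F1 numbered 18 with strands merged, 25 without CCGG, 317 and 808 within library sets 1 and 2, 65 with a limit of 2 points, 7 with 10 points and 48 to 175 with 1 line left out. Those lower numbered 36, 541, 1349 and 7 with strands merged, within library sets 1 and 2 and with 10 points, and 111 to 374 with 1 line left out. The higher count moved by over 1.5 times without line 44 (69), 45 (87), 11 (175), 17 (96) or 21 (69), and the lower count without line 29 (374), 37 (219), 45 (144), 20 (177) or 21 (145). A group of fewer lines overlaps less easily by construction. Members raised in 1 line numbered 4 and 3 with at least 20 and 30 scaled reads, 5 with strands merged, 139 and 1 with limits of 20% and 50%, and 19 to 26 with 1 line left out. Merged strands gave 10188 members, and leaving out 1 line 16881 to 17006.

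The median distance was 74 and 73 bp with at least 20 and 30 scaled reads, 80 bp with strands merged, 74 bp without CCGG, 72 bp under a threshold of 5% and 61 bp with 1 value per gene, and 78 to 79 bp with 1 line left out. The share in island-like sequence was 65.7% and 66.9% with at least 20 and 30 scaled reads, 61.5% with strands merged, 66.5% without CCGG, 67.5% under a threshold of 5%, 61.1% and 60.2% in 2 wider windows, and 63.0 to 63.3% with 1 line left out. No paired analysis was possible because the lines of the 2 groups share no number. Depth limits single values: at the median coverage, a level under 3.8 to 7.14% in 1 line could not be told from 0. The table holds only sites covered in all 8 lines, promoter sites far from islands were thus sampled only where MspI cuts nearby, and the causes of these changes were not tested.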
